A study of Mus musculus with 16 samples.

Results

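The genes described here are 36 factors of heterochromatin and gene silencing, taken by name from a list of writers and readers of H3K9 methylation, Polycomb, DNA methylation and deacetylase proteins. They are 36 of the 18232 genes listed in at least 1 of the deposited tables, and all 36 were listed, and passed the filter on low values, in plasmacytoid dendritic cells (pDCs) and in conventional dendritic cells (cDCs). RNA had been sequenced from splenic dendritic cells (DCs) of C57BL/6 mice aged 6 to 8 weeks. WT mice carried Trim33 fl/fl without Cre. cKO mice carried Trim33 fl/fl with Itgax-Cre, in which Cre is driven by the promoter of the CD11c gene and therefore acts in cells that express CD11c, mainly once DCs have differentiated. Both genotypes share the floxed allele, and no group had Cre without it, so an effect of Cre alone and an effect of losing TRIM33 cannot be told apart. The cells had been sorted as pDCs (CD11c+ SiglecH+), cDC1s (SiglecH- MHC II+ CD24+ CD172a-) and cDC2s (SiglecH- MHC II+ CD24- CD172a+). Each genotype gave 3 libraries of pDCs, 2 of cDC1s and 3 of cDC2s. Each library was a biological replicate that pooled cells of several mice, and a cKO library pooled more mice than a WT library, so the size of the pool and the genotype cannot be told apart.

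Silent chromatin is built by enzymes that mark it and proteins that read the mark. SUV39H1, SUV39H2, SETDB1, EHMT1 (GLP) and EHMT2 (G9a) methylate histone H3 at lysine 9, the HP1 proteins encoded by Cbx1, Cbx3 and Cbx5 bind that mark, and the HUSH complex and MORC3 act with them on transposons and other repeats. Polycomb complex PRC2 methylates lysine 27 of H3 and PRC1 ubiquitinates H2A, DNA methyltransferases methylate CpG sites with the help of the remodeller HELLS (LSH), and deacetylases in the NuRD, SIN3 and CoREST complexes remove acetyl groups. TRIM33 itself has a PHD finger and bromodomain that read H3 tails and belongs to the family of TRIM28 (KAP1), the corepressor that recruits SETDB1. Several of these proteins, among them DNMT1, its partner UHRF1, HELLS and EZH2, are made in larger amounts by dividing cells, in which new chromatin has to be copied.

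Of the 36 genes, 12 rose in cKO cDC1s and none fell, Dnmt1 and Hells rose in cKO cDC2s, and Morc3 alone changed in cKO pDCs, where it fell. A gene counted as changed when its adjusted p was 0.01 or less and its log2 fold change was 0.5 or more in either direction on the scale log2(TPM + 1), in limma fits over all genes of a table with Benjamini-Hochberg adjustment. TPM (transcripts per M transcripts) is a share of a library that already takes transcript length into account. Those counts have to be read against all genes tested. In cDC1s, where the share of all 11411 genes that rose was 15.8%, the 12 genes were Dnmt1, Cbx5, Hells, Dnmt3b, Suv39h1, Cbx3, Ezh2, Cbx1, Pcgf6, Smarcad1, Hdac2 and Eed. The share of all genes that fell in cDC1s was 6.56%, and 22.4% changed in either direction. In cDC2s 3.59% of the same genes rose, 3.56% fell and 7.15% changed. In pDCs 0.814% of 11299 genes rose, 0.239% fell and 1.05% changed.

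**Figure D1:**
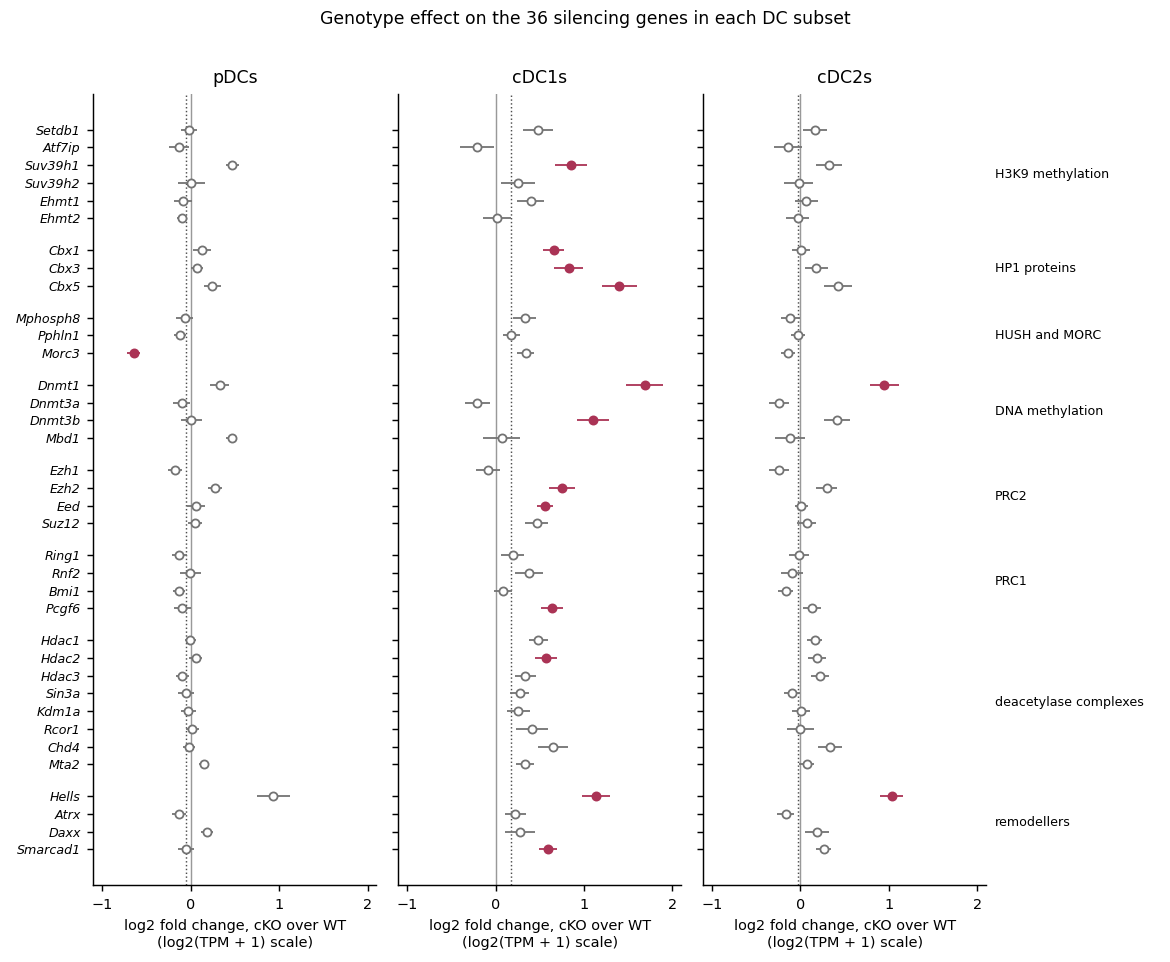
Log2 fold changes (cKO over WT, log2(TPM + 1) scale) of all 36 genes in each DC subset, grouped by role, with filled points for genes that passed the test, bars for the limma standard error and a dotted line at the median of all genes. In cDC1s 33 of 36 points lie above 0, against 21 in cDC2s and 16 in pDCs.

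Without the fold limit, at an adjusted p of at most 0.05, 18 members passed in cDC1s, where 39.6% of all genes did. The corresponding numbers were 2 in cDC2s beside 19.9% of all genes, and 4 in pDCs (Morc3, Hells, Mbd1 and Suv39h1) beside 4.55%. The median log2 fold change of the 36 genes was 0.39 in cDC1s, beside 0.17 over all genes. It was 0.04 in cDC2s beside -0.03, and -0.01 in pDCs beside -0.05. The values were positive for 64.7% of all genes in cDC1s, 46.5% in cDC2s and 38.5% in pDCs, beside 33, 21 and 16 of the 36 members. The shift of all genes in cDC1s depended on scaling. With median-of-ratios scaling the median over all cDC1 genes was 0.02, and 30 members were positive with a median of 0.22. Then 5 members were called higher (Cbx5, Dnmt1, Dnmt3b, Hells and Suv39h1), beside 9.35% of all genes. The share of calls over all genes that were higher moved from 70.7% to 50% in cDC1s and from 50.2% to 60.4% in cDC2s. Dnmt1, Hells and Cbx5 were called in cDC1s under every alternative and without any 1 of the 10 cDC libraries. Leaving out a cDC1 library leaves 1 in that group, which is then assumed to vary like the other groups of the fit. The other 9 each lost the call without WT library 1, cKO library 1 or cKO library 2, and Cbx1, Hdac2, Pcgf6 and Suv39h1 also without WT library 2, so that the count was 3 at its lowest. In pDCs median-of-ratios scaling added Mbd1 and Suv39h1 to the calls, where 1.27% of all genes were called. The replicate number as a block added Hells there (2 members, beside 2.96% of all genes).

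Trim33, the deleted gene, was at 15.5 and 18.2 TPM in WT cDC1s against 7.88 and 7.71 in cKO cDC1s (log2 fold change -1.02, adjusted p = 3.49e-04). It was at 20.6, 18.2 and 17.2 against 7.93, 7.13 and 8.07 in cDC2s (-1.17, adjusted p = 1.26e-04). In pDCs it was at 20.6, 23.8 and 22.3 against 12.6, 16.5 and 11.7, a difference of -0.68 that missed the threshold (adjusted p = 0.0301). TPM is summed over the whole transcript and is not a measure of deletion. The authors reported efficient inactivation of Trim33 in splenic pDCs and cDCs, by qPCR and Western blot of sorted cells. Siglech, whose product was used for sorting, averaged 4981 TPM in WT pDCs, Xcr1, a cDC1 receptor not used for it, 305 in WT cDC1s against 3.77 in WT cDC2s, and Clec4a4, a cDC2 lectin, 360 in WT cDC2s against 0.81 in WT cDC1s. Markers of DC subsets moved with the genotype in cDC1s, where 2 of 5 cDC1 markers (Itgae and Clec9a) fell and the sum of the 5 was 1537 to 1647 TPM in WT and 831 to 875 in cKO. The mean levels in WT and cKO cDC1s were 69.9 and 9.86 TPM for Itgae (CD103), 541 and 214 for Clec9a, 474 and 207 for Cd8a, 305 and 213 for Xcr1, and 201 and 208 for Batf3. The sum of pDC markers was 146 to 157 TPM in WT cDC1s and 233 to 235 in cKO cDC1s. Most of it was Bst2 (means 121 and 200), while Ccr9 averaged 18.2 and 8.84. The sum of cDC2 markers was 32.9 to 49.4 TPM in WT cDC1s and 50.0 to 53.0 in cKO cDC1s. Their means were 1.64 and 10.4 for Itgam, 11.3 and 1.48 for Esam, 5.59 and 6.58 for Sirpa, 0.81 and 2.63 for Clec4a4, and 21.9 and 30.4 for Cd209a. Itgam also averaged more in cKO than in WT pDCs (20.3 and 1.81) and cDC2s (190 and 93.0). The part of these shifts in the cDC1 results was not tested. Summed markers of T cells reached at most 6.96 TPM and of NK cells 1.44, whereas erythroid markers ranged from 123 to 3528 TPM. Monocyte and macrophage markers in cDC2s summed to 1101 to 1549 TPM in WT and 2478 to 3125 in cKO. These sums were mostly Lyz2, with means of 821 and 2125 TPM. Csf1r averaged 157 and 308 and Ly6c2 12.83 and 22.45, while Adgre1 averaged 182 and 150 and C1qa 115 and 120. Ly6g was at 0 in every WT cDC1 and WT cDC2 library, and Elane in both cKO cDC1 libraries. Depth was estimated at 18.1 to 20.2 M reads per library. In sorted bulk samples fewer cells of a type and less RNA per cell cannot be told apart, and neither can a different mix of cells in cycle and a change within each cell.

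The 36 genes covered a wide range of levels. Mta2, a subunit of NuRD, was the highest in all 6 groups, from 132 ± 4.80 TPM (SD, n = 2) in WT cDC1s to 222 ± 8.69 (n = 3) in cKO pDCs. Suv39h2 was the lowest in every group, at mean levels from 1.78 to 2.87 TPM. In WT pDCs Mta2 was followed by Ehmt2 (149 ± 0.955 TPM, n = 3) and Hdac1 (145 ± 5.86), whose ranges overlapped, then by Chd4 (119 ± 6.67) and Cbx3 (104 ± 5.08), which did not overlap with their neighbours. At the lower end of WT pDCs stood Pcgf6 (8.07 ± 0.418 TPM), Dnmt3b (4.71 ± 0.121) and Hells (3.69 ± 0.312), each apart from the next.

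Dnmt1, Hells, Cbx3 and Suv39h1 are shown here by a stretch of promoter because they are the genes called higher in at least 1 subset that hold an E2F word, the sequence bound by the E2F factors that switch on genes of the G1 to S transition. The words searched were TTTCCCGC, TTTCGCGC, TTTGCCGC and TTTGGCGC, on both strands, in the 250 bases before each gene start of RefSeq for GRCm38.p6. Suz12, a member that holds the word and was not called, is given for comparison. Capitals mark the word, or its reverse complement, and each stretch is written 5′ to 3′ on the strand of its gene.
Dnmt1: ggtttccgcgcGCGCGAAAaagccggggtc
Hells: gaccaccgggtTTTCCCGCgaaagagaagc
Cbx3: tggagccccgcTTTGGCGCgctccgagacg
Suv39h1: ggaaggccggcGCGGCAAAcgtgggggccg
Suz12: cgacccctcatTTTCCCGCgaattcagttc

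The stretch of Dnmt1 lies on the minus strand at chr9:20952824-20952853, has its word 219 bases before the start used, 1 of 3 starts listed, and falls in an annotated exon of other Dnmt1 transcripts. That of Hells lies on the plus strand at chr19:38930917-38930946, has its word 62 bases before the start and also falls in an annotated Hells exon. Those of Cbx3 (chr6:51470437-51470466, plus strand, word 168 bases before the start), Suv39h1 (chrX:8074407-8074436, minus strand, word 64 bases before) and Suz12 (chr11:79992876-79992905, plus strand, word 219 bases before) fall in no annotated exon. Each distance is that of the first base of the word as printed. None of the words overlapped a TTTGAA or a CCAAT in the same window. Of the 33 members with a listed promoter, 5 held an E2F word (15.2%), beside 583 of 27025 genes in the table (2.16%). It was held by 4 of the 12 genes that rose in cDC1s (33.3%), by 1 of the 21 other members with a promoter (4.76%), by 5 of 19 proliferation genes (26.3%) and by 2 of 39 partner genes (5.13%). TTTGAA, which lies within the cell cycle element CHR, was found in 15.2% of members and 18.3% of all genes, and CCAAT, the box bound by NF-Y, in 45.5% and 37.5%. Split in the same way, TTTGAA was held by 25% of the 12 genes that rose and 9.52% of the other members, and CCAAT by 33.3% and 52.4%. A match of these letters is a description of the sequence and was not tested for binding.

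Among the DNA methylation genes, Dnmt1 and Dnmt3b rose in cDC1s and Dnmt1 rose in cDC2s, while Dnmt3a did not pass in any subset. Dnmt1 (gene ID 13433, chr9:20907206-20959888) encodes the maintenance methyltransferase that copies CpG methylation onto new DNA. In cDC1s it was at 40.8 and 43.0 TPM in WT and at 137 and 138 in cKO. The difference was 1.69 on the log2 scale (SE 0.21, adjusted p = 2.88e-04), the largest of the 36 genes in any subset, and 1.52 with median-of-ratios scaling. In cDC2s the WT libraries stood at 33.4, 33.8 and 53.6 TPM and the cKO libraries at 88.5, 68.9 and 74.1. WT library 3 was well above the other 2 WT libraries and still below every cKO library. The log2 fold change was 0.95 (SE 0.17, adjusted p = 0.00454). That call was lost (adjusted p up to 0.0194) without cKO cDC1 library 1 or 2, WT cDC2 library 1 or 2, or cKO cDC2 library 1 or 3. In pDCs Dnmt1 was at 30.8, 29.1 and 28.9 TPM in WT and 44.0, 36.2 and 32.9 in cKO, with no overlap and a log2 fold change of 0.33 (adjusted p = 0.137, and 0.0318 with the replicate number as a block).

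Dnmt3b, a de novo methyltransferase, was at a low level throughout. In cDC1s it was at 3.19 and 3.62 TPM in WT and at 8.00 and 8.94 in cKO (log2 fold change 1.10, SE 0.18, adjusted p = 0.00122). It averaged 2.78 ± 0.475 TPM in WT cDC2s and 4.05 ± 0.754 in cKO cDC2s (n = 3 each, 0.42, adjusted p = 0.0732), and 4.71 and 4.76 in WT and cKO pDCs. Dnmt3a, the other de novo enzyme and the more abundant, was at 25.8 ± 1.70 TPM in WT cDC1s and 22.2 ± 0.156 in cKO (n = 2 each), and was 1 of only 2 members, with Atf7ip, whose cKO libraries all lay below the WT libraries in cDC1s. It averaged 67.9 and 57.3 TPM in WT and cKO cDC2s (-0.24, adjusted p = 0.171). Mbd1, which binds methylated CpG and works with SETDB1, was at 61.0, 59.3 and 65.6 TPM in WT pDCs and at 83.3, 84.3 and 90.0 in cKO pDCs. Its adjusted p was 0.00992 at a log2 fold change of 0.46, just under the fold limit. In cDC1s and cDC2s its groups overlapped (0.07 and -0.12).

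Hells (gene ID 15201, chr19:38930262-38970470) rose in both cDC subsets, and its cKO libraries lay above its WT libraries in all 3. In cDC1s, cDC2s and pDCs taken singly 52.1%, 16.3% and 10.8% of all genes did so. The share in all 3 was not counted. The product of Hells remodels nucleosomes so that DNA methyltransferases can reach them. In cDC1s it was at 39.5 and 41.4 TPM in WT and 94.6 and 85.9 in cKO (log2 fold change 1.14, SE 0.16, adjusted p = 5.36e-04). In cDC2s it was at 17.8, 17.5 and 15.2 in WT and at 33.1, 43.7 and 30.7 in cKO (1.03, SE 0.13, adjusted p = 8.18e-04), a call kept without any 1 library. In pDCs the levels were far lower, 3.89, 3.33 and 3.85 TPM in WT and 10.9, 7.57 and 6.08 in cKO. No cKO library overlapped with a WT library there, and the difference of 0.94 (SE 0.19) missed the threshold at an adjusted p of 0.0362, while it passed at 0.00875 with the replicate number as a block. The effects in cDC1s and cDC2s differed by 0.11 (adjusted p = 0.741), and by -0.11 with median-of-ratios scaling.

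Of the other remodellers, Smarcad1, which helps to restore silent marks behind the replication fork, was at 20.4 and 23.1 TPM in WT cDC1s and 34.7 and 31.9 in cKO cDC1s (0.59, SE 0.11, adjusted p = 0.00192). In cDC2s its cKO libraries (26.5, 26.8 and 27.8 TPM) lay above the WT libraries (22.6, 21.2 and 23.1), with an adjusted p of 0.0568. Atrx and Daxx, which together place the histone variant H3.3 in heterochromatin, did not pass in any subset. Their log2 fold changes lay between -0.17 and 0.27.

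All 3 HP1 genes rose in cDC1s, and none passed in cDC2s or pDCs. Cbx5 (HP1α, gene ID 12419, chr15:103191546-103239904) was at 12.6 and 13.4 TPM in WT cDC1s and at 41.9 and 30.6 in cKO cDC1s. The cKO libraries differed from each other by more than for most members and were still both above 30 TPM, and the log2 fold change was 1.40 (SE 0.20, adjusted p = 5.53e-04). Cbx3 (HP1γ) was at 77.5 and 97.9 against 162 and 148 TPM (0.83, SE 0.16, adjusted p = 0.0033). Cbx1 (HP1β) was at 49.3 and 44.9 against 77.4 and 72.2 TPM (0.66, SE 0.12, adjusted p = 0.00227). In cDC2s the 3 genes gave 0.42, 0.18 and 0.00 for Cbx5, Cbx3 and Cbx1, and in pDCs 0.24, 0.07 and 0.12. Cbx5 in pDCs was at 16.2, 14.6 and 16.4 TPM in WT and 20.9, 18.2 and 17.4 in cKO, without overlap (adjusted p = 0.208).

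Among the H3K9 methylation genes, Suv39h1 rose in cDC1s and the other 5 did not pass in any subset. Suv39h1, the enzyme of pericentromeric H3K9 trimethylation, was at 29.3 and 30.4 TPM in WT cDC1s and 57.0 and 52.3 in cKO cDC1s (0.85, SE 0.18, adjusted p = 0.00487). In pDCs it was at 18.6, 19.8 and 19.6 in WT and at 27.9, 27.8 and 25.9 in cKO, without overlap, and its log2 fold change of 0.47 missed both criteria (adjusted p = 0.0145). In cDC2s WT library 3 (31.7 TPM) lay within the cKO range of 29.0 to 31.8, while the other WT libraries were at 20.1 and 21.3. Its close relative Suv39h2 stayed between 1.31 and 3.36 TPM over all 16 libraries.

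Setdb1, which methylates H3K9 when recruited by TRIM28, was at 30.1 ± 2.16 TPM in WT cDC1s and 42.3 ± 1.62 in cKO cDC1s (n = 2 each, 0.48, adjusted p = 0.0474). It gave 0.16 in cDC2s and -0.02 in pDCs. Atf7ip, the partner that stabilises SETDB1, had negative values in all 3 subsets, -0.21 in cDC1s, -0.14 in cDC2s and -0.13 in pDCs, with an adjusted p of 0.414 or more. Ehmt1 and Ehmt2, which dimethylate H3K9 in euchromatin, gave 0.40 (adjusted p = 0.0643) and 0.02 (0.930) in cDC1s, and between -0.10 and 0.07 in the other subsets.

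**Figure D2:**
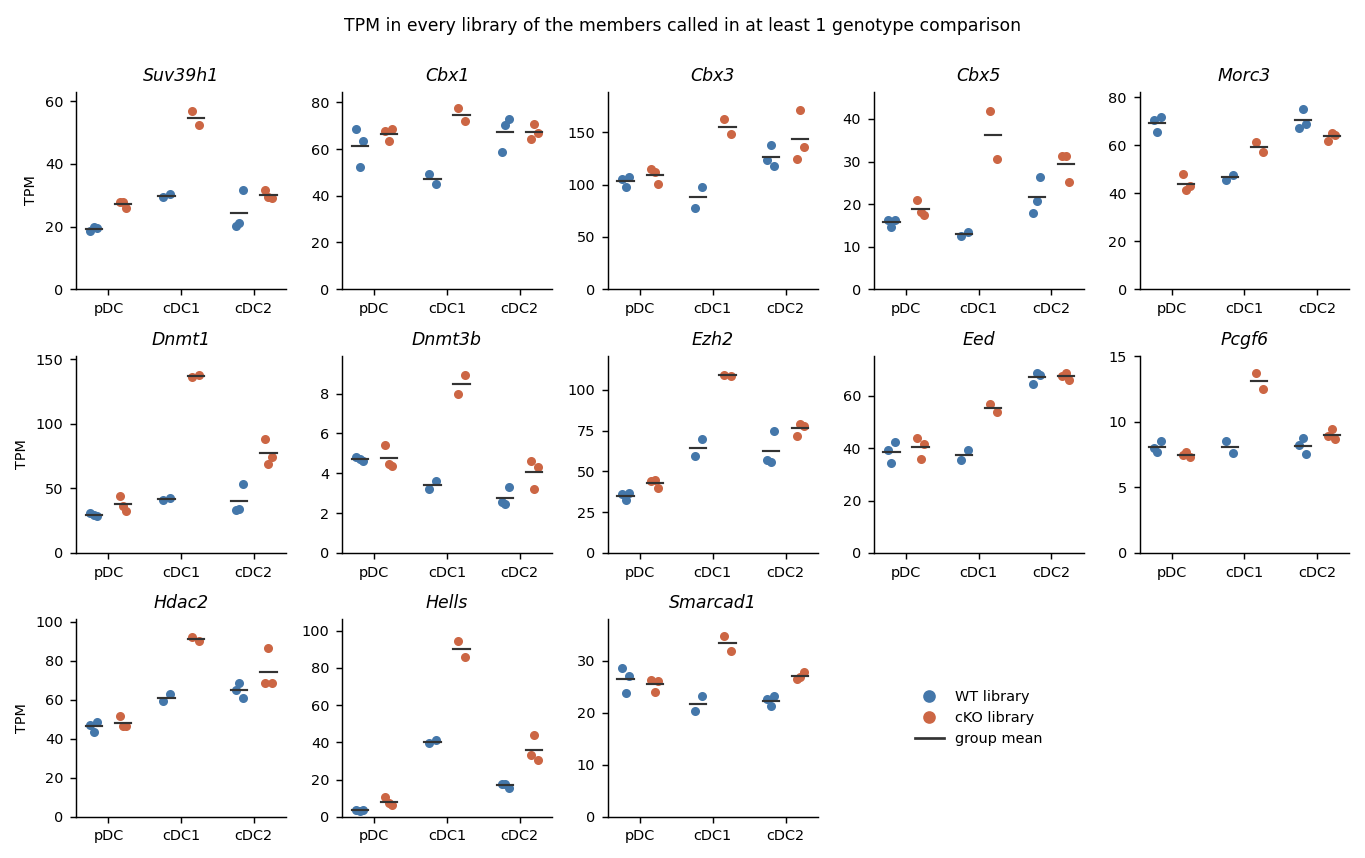
TPM of each library (points, axis from 0; lines show group means) for the 13 genes called in at least 1 subset, WT beside cKO in pDCs, cDC1s and cDC2s. In cDC1s both cKO libraries lie above both WT libraries for all 13, as for 52.1% of all genes. All but Morc3 were chosen by a rise in cDC1s. For Morc3 the cKO libraries lie below the WT libraries in pDCs and cDC2s, as for 16.7% and 19.2% of all genes.

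Morc3 (gene ID 338467, chr16:93832121-93876077) fell in pDCs, and its values had the opposite sign in cDC1s. Its product is a nuclear ATPase that silences endogenous retroviruses and restrains interferon genes. In pDCs it was at 70.4, 65.7 and 72.0 TPM in WT and 48.0, 41.2 and 42.9 in cKO. Every cKO library was well below the lowest WT library, and the log2 fold change was -0.65 (SE 0.08, adjusted p = 0.00566). The call was lost without any 1 WT library or without cKO library 2 or 3, with an adjusted p of up to 0.0381 in the smaller fits. In cDC1s the values were 45.5 and 47.7 against 61.5 and 57.3 (0.34, adjusted p = 0.0182), and in cDC2s 67.1, 75.3 and 69.0 against 61.7, 65.2 and 64.4 (-0.14, adjusted p = 0.236). The difference between the effects in cDC1s and cDC2s was 0.48 (adjusted p = 0.0369, under the fold limit). The HUSH genes Mphosph8 and Pphln1 did not pass in any subset, and their values lay between -0.12 and 0.33.

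Of the PRC2 genes, Ezh2 and Eed rose in cDC1s. Ezh2 (gene ID 14056), the catalytic subunit that predominates in dividing cells, was at 59.4 and 69.9 TPM in WT and at 109 and 109 in cKO (0.75, SE 0.15, adjusted p = 0.00312). Eed, which binds the finished H3K27 mark, was at 35.4 and 39.2 against 57.0 and 53.8 TPM (0.56, SE 0.09, adjusted p = 0.00145). Suz12, the scaffold, gave 0.46 with an adjusted p of 0.0161. Ezh1, the subunit of resting cells, gave -0.09, -0.24 and -0.17 in cDC1s, cDC2s and pDCs, and in cDC2s and pDCs all its cKO libraries were below the WT libraries. Ezh2 in pDCs was at 36.1, 32.6 and 36.7 TPM in WT and 44.0, 44.7 and 39.9 in cKO, without overlap (0.28, adjusted p = 0.0968). In cDC2s its WT library 3 (74.9 TPM) was again within the cKO range of 71.7 to 79.3.

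Of the PRC1 genes, Pcgf6, a subunit of the variant complex PRC1.6 that also holds E2F6, rose in cDC1s, from 8.54 and 7.65 to 13.8 and 12.5 TPM (0.64, SE 0.12, adjusted p = 0.00281). Rnf2 and Ring1, the ubiquitin ligases, gave 0.38 and 0.19 there, and Bmi1, a subunit of canonical PRC1, 0.08. In cDC2s all cKO libraries of Bmi1 (20.9, 23.7 and 22.5 TPM) were below the WT libraries (24.9, 26.2 and 24.5), with an adjusted p of 0.191. In pDCs the 4 genes lay between -0.13 and 0.00.

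Of the 8 deacetylase genes, only Hdac2 passed, in cDC1s, from 59.3 and 63.1 to 92.2 and 90.4 TPM (0.57, SE 0.13, adjusted p = 0.00551). Hdac1, its paralog in the same complexes, was at 112 and 111 against 155 and 157 TPM, with an adjusted p of 0.00571 at a log2 fold change of 0.48, under the fold limit. Chd4, the NuRD helicase, missed on the other criterion (0.65, adjusted p = 0.0128). Hdac3, Mta2, Sin3a, Kdm1a and Rcor1 gave 0.34, 0.33, 0.28, 0.26 and 0.41 in cDC1s. In cDC2s and pDCs the 8 genes lay between -0.10 and 0.33, and none passed.

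By non-overlap alone, all cKO libraries lay above all WT libraries for 31 members in cDC1s, where 52.1% of all genes did so, and below for 2, beside 24.1%. Such a split is easier to meet between 2 and 2 libraries than between 3 and 3. How much of the cDC1 shares comes from this, and how much from the shift of all genes, was not tested. In cDC2s 4 members lay above (Dnmt1, Hells, Smarcad1 and Hdac1) beside 16.3% of all genes, and 3 below (Morc3, Ezh1 and Bmi1) beside 19.2%. In pDCs 8 lay above (Suv39h1, Cbx5, Dnmt1, Mbd1, Ezh2, Mta2, Hells and Daxx) beside 10.8%, and 5 below (Ehmt2, Pphln1, Morc3, Ezh1 and Bmi1) beside 16.7%. Morc3, Ezh1 and Bmi1 were below in both of these subsets, for which the share of all genes was not counted.

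Tested directly, no member differed between its genotype effects in cDC1s and cDC2s at the threshold for calls (limma), where 2.56% of all genes did and 1.21% had the higher effect in cDC1s. At an adjusted p of at most 0.05 there were 4 members, Eed (0.55, adjusted p = 0.0221), Cbx1 (0.65, 0.0293), Morc3 (0.48, 0.0369) and Cbx5 (0.98, 0.0376), beside 11.3% of all genes, and 18 had an unadjusted p under 0.05, as did 30.7% of all genes. The 2 effects share one fit and have no library in common. The effect was higher in cDC1s for 35 of 36 members and for 72.9% of all genes, with a median difference of 0.33 beside 0.22 over all genes. With median-of-ratios scaling it was higher for 26, with a median of 0.12 beside 0.01, and the share of called genes with the higher effect in cDC1s moved from 47.3% to 26.2%.

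**Figure D3:**
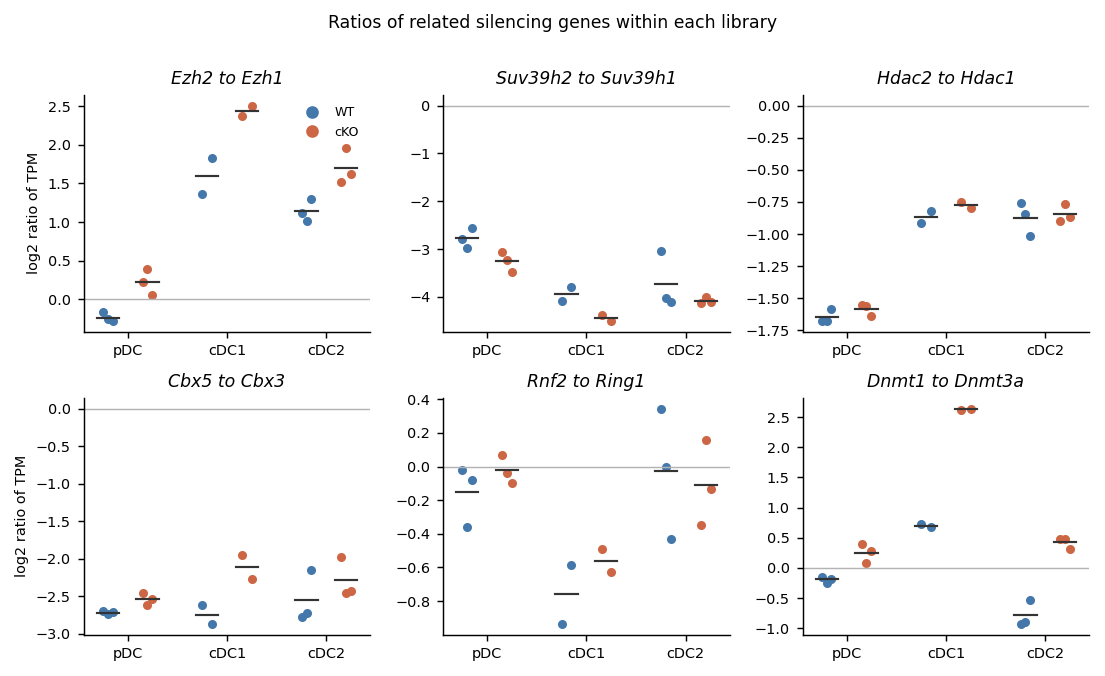
Ratio of TPM within each library (log2 axis) for 6 pairs of related genes, WT beside cKO in each subset, with points for libraries and lines for group means. The ratio of Ezh2 to Ezh1 and that of Dnmt1 to Dnmt3a are higher in every cKO library than in every WT library of the same subset.

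A ratio of 2 genes within a library is not moved by the scaling of that library, and it shows unequal change only. The ratio of Ezh2 to Ezh1 was 0.890, 0.836 and 0.825 in WT pDCs and 1.17, 1.31 and 1.04 in cKO pDCs, so that Ezh1 was the higher of the pair in WT and Ezh2 in cKO. It was 2.57 and 3.54 in WT cDC1s and 5.19 and 5.69 in cKO, and 2.18, 2.03 and 2.47 in WT cDC2s and 2.88, 3.88 and 3.08 in cKO. The log2 differences were 0.46, 0.85 and 0.55. In pDCs and cDC2s the exact two-sided permutation p was 0.1, the smallest that 3 against 3 libraries allow, and in cDC1s 0.333, the smallest for 2 against 2, so that none of the 18 ratio tests could pass 0.05 and the Benjamini-Hochberg values were 0.3 or more.

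The ratio of Dnmt1 to Dnmt3a was 1.66 and 1.59 in WT cDC1s and 6.12 and 6.22 in cKO, a log2 difference of 1.92. In cDC2s it was 0.525, 0.537 and 0.693 in WT and 1.40, 1.40 and 1.25 in cKO, a difference of 1.22 in which the more abundant gene of the pair changed from Dnmt3a to Dnmt1. In pDCs the difference was 0.44. The ratio of Suv39h2 to Suv39h1 was lower in cKO pDCs (-0.48) and cKO cDC1s (-0.50) without overlap, and overlapped in cDC2s (-0.35). That of Cbx5 to Cbx3 was higher by 0.18 in pDCs and by 0.63 in cDC1s, and overlapped in cDC2s (0.26). Hdac2 to Hdac1 and Rnf2 to Ring1 moved by 0.20 or less in either direction.

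Cell cycle genes were counted beside the members. Of 12 S phase genes, 12 rose in cDC1s, 9 in cDC2s and 5 in pDCs, where the shares of all genes that rose were 15.8%, 3.59% and 0.814%. Of the genes of G2 and mitosis, 5 of 10 rose in cDC1s and 5 of 9 in pDCs, while in cDC2s 0 of 10 passed. There 4 of the 10 had an unadjusted p under 0.05 (limma), a limit that at least 19.9% of all genes met. In pDCs the whole list went from 10 called of 21 to 18 with the replicate number as a block. Its median log2 fold change was 1.26, 0.65 and 1.55 in cDC1s, cDC2s and pDCs. In cDC1s the called genes with the largest changes were the replicative helicase genes Mcm2 (1.70, adjusted p = 1.97e-05), Mcm3 (1.63) and Mcm6 (1.61) and the loading factor gene Cdc6 (1.62). In cDC2s they were Mcm5 (adjusted p = 2.73e-04), Mcm2 (1.16), Mcm3 (1.04) and Mcm6 (1.02). In pDCs they were Pclaf (3.40), Top2a (3.13), Rrm2 (2.99) and Mki67 (2.70), all from WT levels of about 1 to 3 TPM.

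The summed TPM of the S phase genes was 773 to 934 in WT cDC1s and 2199 to 2252 in cKO cDC1s. It was 911 to 1040 against 1551 to 1878 in cDC2s, and 366 to 433 against 550 to 677 in pDCs. The sum of the G2 and mitosis genes was 178 to 278 against 463 to 528 in cDC1s, 280 to 426 against 435 to 528 in cDC2s, and 11.5 to 14.1 against 65.2 to 158 in pDCs. None of these ranges overlapped between genotypes. Within groups, WT cDC2 library 3, the highest of its group for Dnmt1, Suv39h1 and Ezh2, was also the highest for both sums, but it was the lowest of its group for Hells. Its sums of all 36 genes (1982 TPM) and of the partner genes (2544 TPM) were the highest of the group as well. In cKO pDCs library 1, the highest of its group for Dnmt1, Hells and Cbx5, was the highest for the G2 and mitosis sum, whereas library 2 was the highest for the S phase sum (677 against 645 TPM in library 1). For the 36 genes together library 1 was the highest (1970 TPM), and for the partner genes library 2 (2476 TPM). Library 1 of the cKO pDCs also had the largest sums of B cell markers (52.3 TPM) and neutrophil markers (65.9 TPM) of its group. The part of cycling cells, or of other cells, in the results for the 36 genes was not tested.

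**Figure D4:**
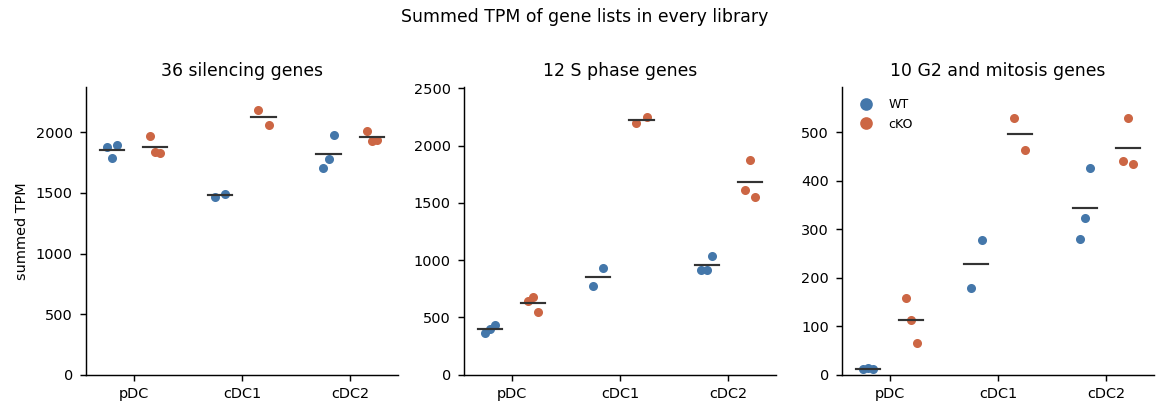
Summed TPM per library (points, axis from 0; lines show group means) of the 36 genes, of the S phase genes and of the G2 and mitosis genes, WT beside cKO in each subset. The 36 genes together lie at 1467 to 1496 TPM in WT cDC1s and 2063 to 2183 in cKO cDC1s, and overlap between genotypes in pDCs and cDC2s.

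The 36 genes together took 1467 to 1496 TPM in WT cDC1s and 2063 to 2183 in cKO cDC1s. The sums overlapped in cDC2s, 1708 to 1982 in WT and 1929 to 2009 in cKO, and in pDCs, 1786 to 1893 and 1831 to 1970. Among the cDC groups the WT cDC1s had the lowest totals and the cKO cDC1s the highest. The 49 partner genes together also took more in cKO cDC1s, 2512 to 2609 TPM against 1981 to 2015 in WT cDC1s. Their sums overlapped between genotypes in cDC2s and pDCs.

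Of 48 tested partner genes, other subunits and cofactors of the same complexes, 8 rose and 1 fell in cDC1s, 2 rose and 2 fell in cDC2s, and 1 rose and 1 fell in pDCs. The 8 that rose in cDC1s were 16.7% of the partners, close to the 15.8% of all genes. With median-of-ratios scaling 4 rose and 2 fell in cDC1s, where 9.35% of all genes rose and 18.7% changed. The partners' median log2 fold changes were 0.24, -0.06 and -0.05 in cDC1s, cDC2s and pDCs, beside 0.17, -0.03 and -0.05 over all genes. Uhrf1, whose product brings DNMT1 to newly copied DNA, rose in all 3 subsets. It was at 39.5 and 41.0 TPM in WT cDC1s and 118 and 116 in cKO (1.52, adjusted p = 2.60e-04), and at 41.5, 44.3 and 66.0 in WT cDC2s and 104, 103 and 95.1 in cKO (1.01, adjusted p = 0.00182). In pDCs it was at 2.84, 2.19 and 1.59 in WT and 23.4, 15.2 and 9.83 in cKO (2.36, adjusted p = 0.0063).

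The other partners with the largest called changes in cDC1s were Phf19 (1.47, adjusted p = 4.19e-04), which ties PRC2 to H3K36 methylation, E2f6 (0.96), which brings PRC1.6 to E2F sites, and Trim28 (0.93). In cDC2s they were Phc1, a subunit of canonical PRC1, which fell by 1.49 (adjusted p = 9.92e-05), Cbx7, a reader of H3K27 methylation, which fell by 0.72, and E2f6, which rose by 0.68. Phc1 was at 60.8, 51.4 and 69.1 TPM in WT cDC2s and 24.3, 18.5 and 19.8 in cKO cDC2s, but at 8.99 and 9.66 in WT cDC1s and 12.7 and 11.9 in cKO cDC1s. In pDCs Chd3, a helicase related to Chd4, fell by 0.89 (adjusted p = 0.00659).

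**Figure D5:**
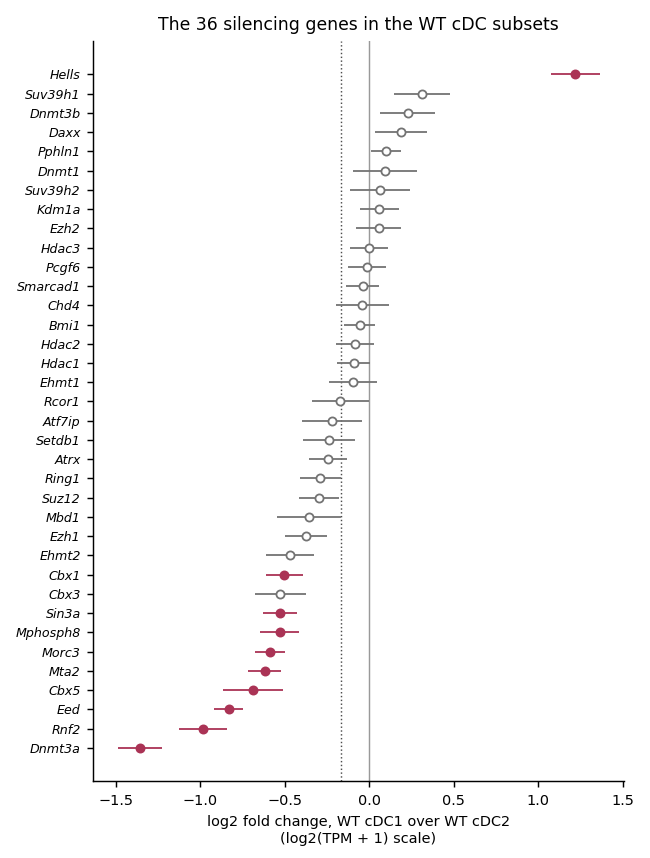
Log2 fold changes of the 36 genes between WT cDC1s (n = 2) and WT cDC2s (n = 3) on the log2(TPM + 1) scale, in order of size, with bars for the limma standard error, filled points for genes that passed the test and a dotted line at the median of all genes. Hells lies at 1.22, and Dnmt3a, Rnf2 and Eed lie farthest below 0.

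Between WT cDC1s and WT cDC2s, 10 members differed, 1 of them higher in cDC1s and 9 lower. Over all genes 10.9% were higher in cDC1s, 20.8% lower and 31.7% in either direction, and the medians were -0.20 for the members and -0.17 for all genes. Hells was the higher member, at 39.5 and 41.4 TPM against 17.8, 17.5 and 15.2 (1.22, adjusted p = 6.49e-05). Dnmt3a was the lowest relative to cDC2s, at 24.6 and 27.0 TPM against 63.5, 62.9 and 77.4 (-1.36, adjusted p = 1.37e-05). Rnf2 was at 13.4 and 16.5 against 35.4, 30.5 and 25.9 (-0.98, adjusted p = 2.71e-04), and Eed at 35.4 and 39.2 against 64.6, 68.7 and 68.0 (-0.83, adjusted p = 2.39e-05).

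The other 6 were Cbx5 (-0.69), Mta2 (-0.62), Morc3 (-0.59), Sin3a (-0.53), Mphosph8 (-0.53) and Cbx1 (-0.50). With median-of-ratios scaling the medians were -0.01 for the members and 0.01 for all genes, and the share of called genes that were higher in cDC1s moved from 34.4% to 51.4%. Under that scaling Dnmt3a, Eed, Hells and Rnf2 stayed past the threshold and these 6 did not, where 31% of all genes differed. Dnmt3a, Eed, Hells, Rnf2, Morc3 and Mta2 passed without any 1 of the 10 cDC libraries, so that the count was 6 at its lowest. All 4 others lost the call without WT cDC1 library 1. Cbx1 and Cbx5 also lost it without WT cDC1 library 2, WT cDC2 library 2 or WT cDC2 library 3, Cbx5 without any 1 cKO cDC2 library, Mphosph8 without WT cDC2 library 1 or 2, and Sin3a without WT cDC2 library 3 (adjusted p up to 0.0625 over these genes). Cbx1, Cbx5 and Eed were thus lower in WT cDC1s than in WT cDC2s and rose in cKO cDC1s, and since both contrasts use the WT cDC1 libraries they are not independent. Levels of pDCs and cDCs came from separately prepared tables and were not tested against each other. Of the partners, 12 (25%, beside 31.7% of all genes) differed between the WT subsets, led by Phc1 (-2.56), Aebp2 (-1.48), Chd3 (-0.99) and Mta3 (-0.96), and of the 22 proliferation genes Mki67 alone differed (-0.89).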

How the data were processed

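Reads of 50 bases from 1 end (BGISEQ-500) had been cleaned by the authors with SOAPnuke and mapped to transcripts with Bowtie2 2.2.5 and estimated expression with RSEM 1.2.12. The release of the transcript reference, strandedness and the treatment of reads shared by near-identical copies are not given in the sources used here, so Cbx3, Hdac1, Dnmt3a and Dnmt3b, which have pseudogenes in RefSeq, are less certain. The TPM values deposited by the authors were analysed, in 1 table for pDCs and 1 for cDCs, and the deposited FPKM values served as an alternative and for depth. The authors tested these cells with DESeq2. As the values are not counts, limma 3.58.1 in R 4.3.3 was used here (lmFit and eBayes with a trend) on log2(TPM + 1), which understates the change of low genes, for genes whose mean TPM over the fitted libraries reached 1. Tests were two-sided. The cDC fit held 4 group means over 10 libraries, the pDC fit 6 libraries.

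Groups came from the sample titles. The 36 members, 49 partners, 22 proliferation genes and the markers were chosen with earlier results of these data known. Every member is named, with each library's value for members called in at least 1 genotype contrast, and at most 4 called genes of the partner and proliferation lists per contrast, largest change first. Stretches of promoter were chosen as the called members that hold an E2F word, with Suz12 added after its sequence was seen. Alternatives were FPKM, median-of-ratios scaling, quantile normalization, a pseudocount of 0.1, no filter, no trend, a replicate block and leaving out each library. The labels do not say what a replicate number marks. Deviations of same-numbered WT and cKO pDC libraries from their group means correlated weakly (r 0.310, 0.392 and 0.206). A pairing in pDCs is therefore possible but not known, and the main fit did not use it. P-values measure the spread between these libraries.

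Depth was estimated from the steps of low FPKM values with Python 3.11.15. For a transcript of 2000 bases 3 reads are then worth 0.142 to 0.183 TPM, which covers counting error only. No libraries were identical, and replicates correlated at r = 0.9911 to 0.9967 across genes. On simulated data with 200 genes changed by a log2 fold change of 1, the fit recovered 73.5% with 1 false call in pDCs (11289 genes), 54.5% with 1 in cDC1s (11347 genes) and 71% with 3 in cDC2s (11352 genes). The changed genes were drawn from those with a mean TPM of at least 3. Each gene otherwise had the same mean in every group and a normal spread. A shift of all genes between groups, as in cDC1s, was not simulated, so these numbers do not cover errors from scaling.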

Additional observations from a re-analysis of the deposited data

Results flagged for a closer look

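The genotype effect on Phc1, a partner gene and subunit of canonical PRC1, differed between cDC1s and cDC2s by 1.86 on the log2 scale in the limma test of the difference itself (adjusted p = 8.31e-04), with both cKO cDC1 libraries above the WT libraries and all 3 cKO cDC2 libraries below.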

How the results depend on the processing

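The count of all genes called in pDCs was 119, and 24 without the filter, 335 with the replicate block, 56 without the trend, 514 with adjusted p of 0.05 or less and no fold limit (the looser threshold) and 12 to 97 without 1 library. Of the members in pDCs 1 was called, and 3 with median-of-ratios scaling, 0 without the filter, 2 with the block, 0 without the trend, 4 at the looser threshold and 0 to 1 without 1 library. In cDC1s 2555 genes became 4522 at the looser threshold and 800 to 2888 without 1 library, and 12 members became 5 with median-of-ratios scaling, 5 with quantile normalization and 3 to 13 without 1 library. In cDC2s 816 genes became 356 with the block, 423 with the crossed block, 2274 at the looser threshold and 316 to 907 without 1 library, and 2 members became 1 without the filter, 1 with either block and 1 to 3 without 1 library. For the difference between cDC1s and cDC2s 292 genes became 95 with the block, 111 with the crossed block, 1286 at the looser threshold and 77 to 282 without 1 library, and 0 members became 4 at the looser threshold. Between WT cDC1s and cDC2s 3612 genes became 5557 at the looser threshold and 2649 to 3575 without 1 library, and 10 members became 6 with FPKM, 4 with median-of-ratios scaling, 6 with quantile normalization and 6 to 10 without 1 library. The log2 differences in ratio that changed sign without 1 library were those of Hdac2 to Hdac1 (-0.0435 to 0.0862) and Rnf2 to Ring1 (-0.280 to 0.106) in cDC2s. The cause of these changes was not tested. For single genes and ratios, the alternatives other than the crossed block gave 492 values counted as the same. For a gene that means still past the threshold, and for a ratio, which had no threshold, only an unchanged sign. A further 100 kept the direction but were no longer past the threshold, and 4 were reversed. The crossed block, run for genes only, gave 20 the same and 4 no longer past the threshold, with none reversed.

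Same-numbered libraries did not deviate together in cDC2s (r -0.249, 0.253 and -0.165) or cDC1s (-0.233), so the block there pairs a shared number only, and the alternative with crossed cDC1 numbers was chosen after seeing the data. With 2 libraries a group in cDC1s, the exact tests could not pass 0.05.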
